A study of Mus musculus with 38 samples.

Results

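H3K27ac peaks of mouse epidermal stem cells (EpdSCs) were compared between uninduced skin (D0) and skin in which the transcription factor SOX9 had been switched on for 6 weeks (W6). All peaks of both lists were taken, 30268 at D0 and 30516 at W6, or 60784 of the 156394 H3K27ac peaks in the 5 lists made from skin. A D0 peak that shared no base with any W6 peak is called lost, a W6 peak that shared no base with any D0 peak is called gained, and the others are called shared. Peaks within 2500 bp of an annotated transcription start site are called promoter peaks and all others distal. Each peak was also assigned to the protein-coding gene whose start site lay nearest to its summit, if that was within 50 kb.

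Acetylation of histone H3 at lysine 27 is deposited by acetyltransferases such as p300 and CBP at active promoters and enhancers, whereas enhancers that are only primed carry H3K4me1 without it. Peaks away from start sites are therefore commonly read as candidate enhancers, many of which are particular to a cell type, while promoter peaks are mostly common to many cells. SOX9 is a factor of hair follicle stem cells (HFSCs) and of basal cell carcinoma that EpdSCs of adult interfollicular epidermis normally lack.

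The series holds 38 samples of chromatin profiled by MINT-ChIP, in which chromatin of several samples is barcoded and pooled before the antibodies are added, and 6 of them are used here. All 6 came from male K14rtTA; TRE-myc-Sox9 mice, in which the *Krt14* promoter drives a doxycycline-dependent activator in basal keratinocytes and this activator drives a MYC-tagged *Sox9* cDNA. D0 animals carried both transgenes without induction, and W6 animals were injected with doxycycline (DOX) at postnatal day 21 and kept on DOX feed for 6 weeks, so that age and the drug itself changed together with SOX9. Cells were sorted from back skin as CD49f-high, CD34-negative and Ly6A-high, without cells carrying CD31, CD45, CD117 or CD140a. D0 was represented by 2 samples (a high and a low micrococcal nuclease digest, each of replicates 1 and 2) and W6 by 4 samples (2 replicates, each with both digests). By the sample titles none of these samples held both D0 and W6. Differences between libraries therefore cannot be told apart from differences between the groups. The sources used here do not say how many animals made up a replicate. The authors merged each group into 1 peak list before calling peaks, so the spread between replicates is not known here, D0 and W6 could not be tested against each other, and the 95% intervals given for shares (exact, Clopper-Pearson) cover counting error only.

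Depth had to be inferred. Deposited fold enrichments imply a mean pileup over the genome, here called the background, of 0.501 at D0 and 0.677 at W6, so that W6 was the deeper list, and the smallest pileup called was 4 at D0 and 5 at W6. Expressed as height (summit pileup over that background), the weakest peaks stood at 7.99 times background at D0 and 7.39 at W6, so a peak missing from a list may be one that fell just short of these heights. Peaks were slightly wider at W6, with a median of 715 bp against 635 bp. Promoters of all 8 markers of basal keratinocytes (*Krt5*, *Krt14*, *Trp63*, *Itga6*, *Itgb4*, *Col17a1*, *Ly6a*, *Cdh1*) carried a peak at both times. Of 7 immune markers none had a promoter peak at D0 and only *Cd68* had one at W6, of 8 fibroblast markers only *Thy1* had one in either list, of 8 endothelial markers 1 had one in each list, and of 8 melanocyte markers 1 had one at D0 and 2 at W6. Sebocyte markers had 5 of 8 promoters marked at both times, and markers of hair shaft and inner root sheath 4 of 10 at D0 and 2 at W6. Whether cells of these other types contributed to any peak was not tested.

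To show what such regions look like, the 100 bp on either side of the summit are printed for 6 distal peaks, on the plus strand of GRCm38/mm10, 5′ to 3′. They are the 2 gained peaks with the highest fold enrichment that held a SOX motif in this window, the strongest gained peak of *Runx1*, the strongest lost peak of all, and the strongest lost peaks of *Egfr* and *Col17a1*, a choice made after the values were seen. Capitals mark matches on either strand to the AP1 motif (TGANTCA), to the SOX motif in its form ACAATG, to the second form of the SOX motif that was searched, which is ACAAAG, to the RUNX motif (TGTGGT) or to the GATA motif (AGATAA).
Gained, intron of *Gm20388* near *Map1lc3b*, chr8:121585464-121585664: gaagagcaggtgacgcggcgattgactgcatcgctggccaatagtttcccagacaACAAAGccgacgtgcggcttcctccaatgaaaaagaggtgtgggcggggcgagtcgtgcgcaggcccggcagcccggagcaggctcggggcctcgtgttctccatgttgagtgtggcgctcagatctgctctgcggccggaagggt
Gained, intron near *Cldn23*, chr8:35876523-35876723: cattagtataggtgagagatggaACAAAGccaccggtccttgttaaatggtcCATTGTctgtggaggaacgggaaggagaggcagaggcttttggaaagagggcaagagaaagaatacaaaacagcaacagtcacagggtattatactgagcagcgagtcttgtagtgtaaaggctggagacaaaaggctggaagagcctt
Gained, intron of *Runx1*, chr16:92738705-92738905: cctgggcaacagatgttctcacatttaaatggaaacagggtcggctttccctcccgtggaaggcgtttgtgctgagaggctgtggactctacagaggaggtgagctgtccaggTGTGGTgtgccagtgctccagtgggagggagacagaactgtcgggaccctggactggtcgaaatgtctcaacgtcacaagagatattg
Lost, intron of *Slc16a9*, chr10:70263191-70263391: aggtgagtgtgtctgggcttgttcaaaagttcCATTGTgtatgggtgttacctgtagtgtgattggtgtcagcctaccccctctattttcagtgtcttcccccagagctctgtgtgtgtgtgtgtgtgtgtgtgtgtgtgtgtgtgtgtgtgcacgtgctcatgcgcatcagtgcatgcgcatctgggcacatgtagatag
Lost, intron of *Egfr*, chr11:16796169-16796369: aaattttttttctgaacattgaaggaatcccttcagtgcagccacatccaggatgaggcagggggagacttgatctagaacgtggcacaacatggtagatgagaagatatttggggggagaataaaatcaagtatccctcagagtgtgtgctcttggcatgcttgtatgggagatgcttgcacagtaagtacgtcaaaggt
Lost, intron of *Col17a1*, chr19:47660174-47660374: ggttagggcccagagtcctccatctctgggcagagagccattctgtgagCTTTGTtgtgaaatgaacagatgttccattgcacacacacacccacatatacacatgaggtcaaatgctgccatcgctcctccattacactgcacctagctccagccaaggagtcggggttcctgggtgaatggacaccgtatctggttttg
The *Cldn23* window held 2 SOX matches and the other gained windows 1 match each, a SOX match near *Map1lc3b* and a RUNX match at *Runx1*. SOX matches also stood in the lost windows of *Slc16a9* and *Col17a1*, and the lost *Egfr* window held none of the 4 motifs. Single matches of this kind are frequent, as the shares over all distal peaks given further on show.

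Losses and gains were nearly equal in number and were concentrated away from promoters. In all, 11450 D0 peaks were lost (37.8% of the list, 37.3 to 38.4%) and 12132 W6 peaks were gained (39.8%, 39.2 to 40.3%). Of distal peaks, 9355 of 17249 were lost (54.2%, 53.5 to 55%) and 8824 of 16553 were gained (53.3%, 52.5 to 54.1%). Of promoter peaks, 2095 of 13019 were lost (16.1%, 15.5 to 16.7%) and 3308 of 13963 were gained (23.7%, 23.0 to 24.4%), so that promoters held more gains than losses whereas distal sites did not. Fewer cells carrying the mark and less of it per cell cannot be told apart in such bulk lists. The order of lost and gained was not stable: the ratio of lost to gained peaks was 0.944, but 1.02 when peaks less than 1000 bp apart were joined and 1.01 when only peaks reaching the smallest height of the other list were counted.

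**Figure D1:**
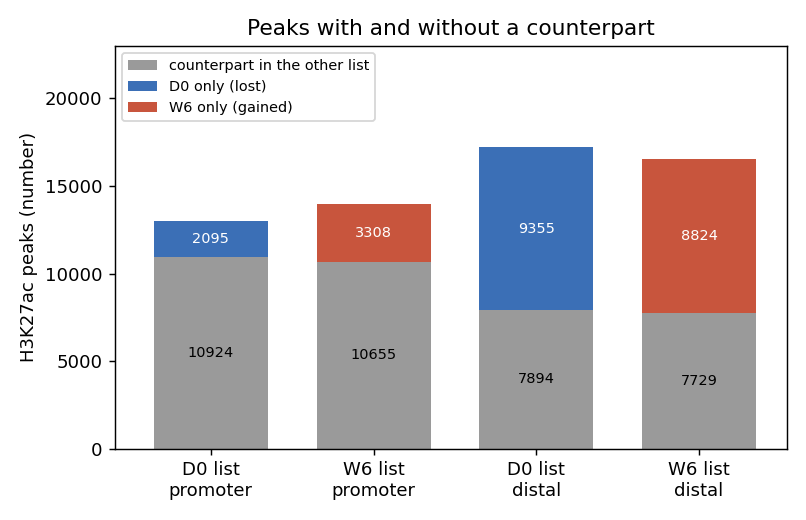
H3K27ac peaks of D0 and W6 that were lost, gained or shared, shown for promoter and distal peaks. Distal peaks were 81.7% of the lost and 72.7% of the gained class, against 41.9% of shared D0 and 42.0% of shared W6 peaks.

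Changed peaks were weaker and narrower than shared ones. Lost peaks had a median fold enrichment of 4.66 and a median width of 420 bp, against 8.0 and 886 bp for shared D0 peaks. Gained peaks had a median fold enrichment of 5.37 and a width of 449 bp, against 8.95 and 1030 bp for shared W6 peaks. Only 15% of lost and 19.8% of gained peaks exceeded the median score of their own list. When peaks were ranked by score and cut into 10 equal bins, from the lowest to the highest bin, the share of distal D0 peaks that were lost went from 78.1% to 1.57% and that of distal W6 peaks that were gained from 75.5% to 4.31%. For promoters the same shares went from 63.8% to 0.116% at D0 and from 75.6% to 0.925% at W6. The strongest sites of both time points were almost wholly shared, and 19.0% of lost and 20.5% of gained peaks lay within 1000 bp of a peak of the other list.

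**Figure D2:**
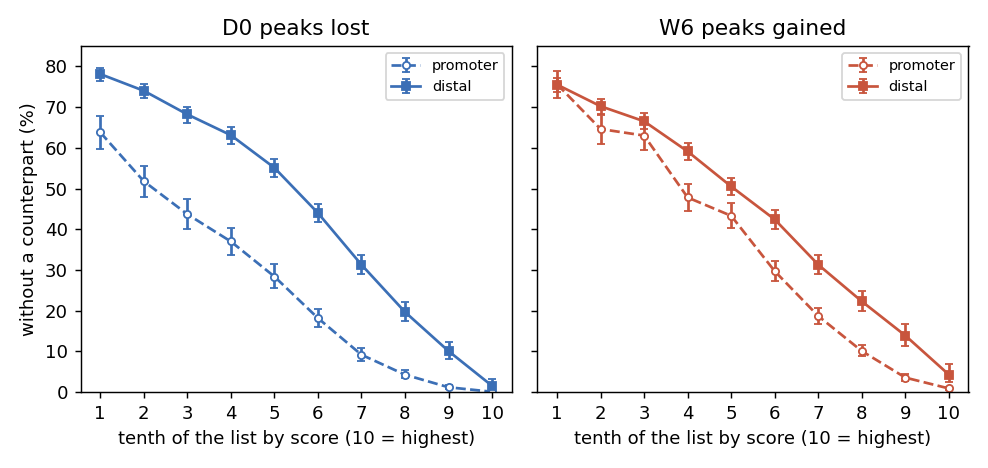
Share of peaks without a counterpart in the other list by 10 equal bins of the authors' score, for promoter and distal peaks of D0 and W6, with exact 95% intervals. The curves descend from between 63.8% and 78.1% among the weakest peaks to between 0.116% and 4.31% among the strongest.

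Genes with several changed peaks were next collected. Of 21938 protein-coding genes, 12116 had a peak assigned, 850 (3.87%) had 3 or more lost peaks and 859 (3.92%) had 3 or more gained peaks. Both groups shared 191 genes, which is 22.5% of the first and 22.2% of the second. Genes with 3 or more lost and no gained peak numbered 330, and genes with 3 or more gained and no lost peak numbered 357. Counting only peaks above the median score against the full other list left 34 genes with 3 or more lost and 53 with 3 or more gained peaks. Joining of neighbouring peaks less than 1000 bp from each other made these counts 546 and 475. At the main setting, genes with repeated changes accounted for 45.9% of all assigned lost peaks and 43.0% of all assigned gained peaks.

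The 12 genes with the largest surplus of gained over lost peaks were *Actn1*, *Plekha7*, *Shroom3*, *Nedd9*, *Pde4b*, *Shf*, *Tns3*, *Gtf2ird1*, *Tacc2*, *Nhsl1*, *Shb* and *Osbpl3*. *Actn1*, which encodes an alpha-actinin that cross-links actin filaments (chromosome 12, 80167547 to 80260371, minus strand), had 1 peak at D0 and 16 at W6, of which 15 were gained, 12 of them in introns, and none was lost. The length covered by H3K27ac near its start sites went from 1.17 kb to 20.84 kb. The 4 strongest gained peaks of *Actn1* had fold enrichments of 13.7, 10.1, 9.54 and 8.95, the first in an intron 35916 bp from the start. Of its 15 gained peaks, 4 overlapped a peak at W1, 9 at W2 and 8 at W12, beside 33.8%, 43.9% and 26.9% of all gained distal peaks. The promoter of *Actn1* was marked at both times, at heights of 18.0 and 26.6.

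The adherens junction protein gene *Plekha7* had 16 gained and 2 lost peaks (14 peaks at D0, 24 at W6) and *Shroom3*, which acts in apical constriction, 14 gained and 3 lost (4 at D0, 15 at W6). *Nedd9*, a focal adhesion scaffold, had 13 gained and 2 lost peaks, and 11 of the gained ones were also called at W2. *Tns3*, a tensin that links integrins to actin, had 10 gained peaks and none lost, with coverage going from 2.12 kb to 16.18 kb. Signalling adaptors with an SH2 domain were also found: *Shf* had 10 gained peaks (2 peaks at D0, 12 at W6) and *Shb* had 9 (3 at D0, 12 at W6), both without losses and both with a promoter peak at W6 only, at heights of 45.8 and 16.3. *Gtf2ird1*, a transcription factor of the TFII-I family, had no peak at D0 and 10 at W6 that covered 9.88 kb. The others were *Pde4b*, a cAMP phosphodiesterase with 11 gained and no lost peaks, *Tacc2*, a centrosomal protein gene with 16 gained and 7 lost, *Nhsl1* with 13 and 4, and *Osbpl3*, an oxysterol-binding protein gene with 10 and 1. After the same joining of neighbouring peaks, the surplus of gains shrank by over 1.5 times at *Pde4b* (11 to 3), *Shb* (9 to 3), *Tns3* (10 to 4), *Nhsl1* (9 to 4), *Shf* (10 to 5), *Tacc2* (9 to 5), *Shroom3* (11 to 6) and *Nedd9* (11 to 7), and was 11 at *Actn1*. Median fold enrichments of the gained peaks of these 12 genes ran from 4.17 (*Nedd9*) to 7.46 (*Shf*). Counting only peaks above the median score against the full other list, their surplus ran from 1 (*Pde4b*) to 6 (*Shf* and *Shb*).

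The 12 genes with the largest surplus of lost over gained peaks were *Tiam1*, *Rxra*, *Ptpn14*, *Spred2*, *Egfr*, *Col17a1*, *Foxn3*, *Fgfr2*, *Cobl*, *Tnfrsf19*, *Slc24a3* and *Ablim1*. *Egfr*, the epidermal growth factor receptor (chromosome 11, 16752203 to 16918158, plus strand), had 19 peaks at D0 and 6 at W6, with 14 lost and 1 gained. All 14 lost *Egfr* peaks were intronic and lay between 3203 and 48971 bp from the start, with fold enrichments from 4.0 to 8.0, and the one printed above was the strongest. Coverage near *Egfr* went from 19.12 kb to 5.52 kb, while its promoter was marked at both times, at heights of 79.9 and 36.9. After joining of neighbouring peaks, gained minus lost peaks at *Egfr* went from -13 to -4, at *Tiam1* from -18 to -8, at *Spred2* from -15 to -8, at *Ptpn14* from -15 to -9, at *Col17a1* from -13 to -7 and at *Foxn3* from -11 to -7. Of the lost *Egfr* peaks 7 were still called at W1, 6 at W2 and 1 at W12. Over all lost distal peaks these shares were 30.3%, 21.8% and 16.2%.

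*Col17a1*, which encodes collagen XVII of the hemidesmosome (chromosome 19, 47646344 to 47692094, minus strand), had 23 peaks at D0 and 12 at W6, with 15 lost and 2 gained. Its promoter stood at a height of 198 at D0 and 44.3 at W6. Lower W6 heights, as also at the *Egfr* promoter, were common among strong shared peaks, as given further on. Lost *Col17a1* peaks were weak, with a median fold enrichment of 4.21 and a highest of 5.98, so that under a count of peaks above the median score against the full other list this gene had neither a surplus of losses nor of gains. The largest surplus of losses belonged to *Tiam1*, a guanine nucleotide exchange factor for Rac, with 22 lost and 4 gained peaks (41 at D0, 24 at W6). *Rxra*, the retinoid X receptor alpha gene, had 24 lost and 9 gained, and its surplus also vanished above the median score. *Ptpn14*, a phosphatase that restrains YAP, had 19 lost and 4 gained peaks. Above the median score, gained minus lost peaks at the other genes of these 12 ran from -1 (*Tnfrsf19* and *Ablim1*) to -6 (*Slc24a3*), with -2 at *Tiam1*.

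Further genes kept between 1 and 14 peaks at W6. *Spred2*, an inhibitor of Ras and ERK signalling, had 15 lost and no gained peaks (18 at D0, 3 at W6). The fibroblast growth factor receptor gene *Fgfr2* had 11 lost and no gained peaks (15 at D0, 4 at W6), all in introns and all in the 46522 bp next to its main start site, and its promoter height was 36.0 at D0 and 39.9 at W6. *Cobl*, an actin nucleator, went from 12 peaks to 1, and the calcium exchanger gene *Slc24a3* from 11 peaks to 1, with its promoter peak (height 26.0) called at D0 only. *Tnfrsf19*, a receptor of the tumour necrosis factor family, had 12 lost and 1 gained peaks, as had the forkhead gene *Foxn3*, and the actin-binding LIM protein gene *Ablim1* had 12 and 2. Coverage of *Tnfrsf19* was 11.83 kb at D0 and 3.31 kb at W6. Of the lost peaks, those called at W12 were none at *Cobl* and *Tnfrsf19*, 1 at *Foxn3*, 2 each at *Fgfr2* and *Ablim1*, and 4 each at *Slc24a3* (of 10) and *Spred2* (of 15), beside 16.2% of all lost distal peaks.

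**Figure D3:**
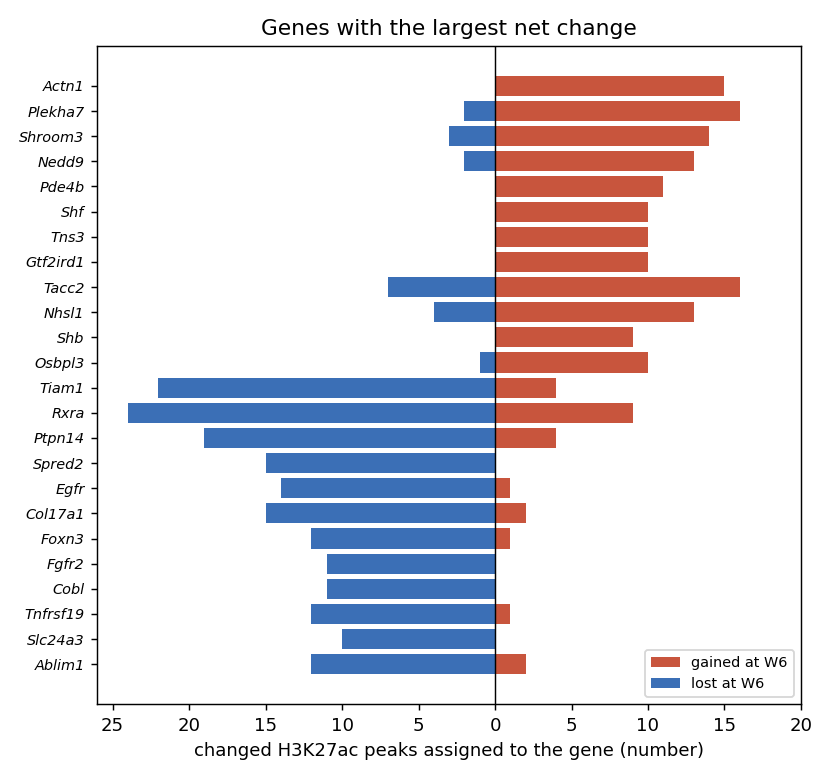
Lost and gained H3K27ac peaks of the 24 protein-coding genes with the largest surplus of gained or lost peaks, assigned by nearest start site within 50 kb. *Actn1* had 15 gained and 0 lost peaks, *Spred2* 15 lost and 0 gained.

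Genes with 5 or more peaks in 1 list and none in the other, a group formed after the values were seen, numbered 24 for D0 and 27 for W6. At D0 only, *Adamts14* and *D6Ertd527e* had 8 peaks, and *Wnt3*, *Wnt5a*, *Tgm3* and *Slc4a8* had 7. *Sox6*, another SOX family gene, had 6 D0 peaks that covered 7.57 kb and none at W6, and *Ddr2*, *Mgll* and *Frmd4a* likewise had 6. At W6 only, *Gtf2ird1* had 10 peaks, the endosomal recycling gene *Rab11fip5* 9 and *Ank*, a pyrophosphate transport gene, 8. The ETS factor gene *Elk3*, the receptor gene *Igf2r* and the desaturase gene *Scd3* had 7 each, the protease inhibitor gene *Spink5*, the growth factor gene *Ptn* and the WNT ligand gene *Wnt2b* 6, and the receptor gene *Fgfr1*, the Hox gene *Hoxb9*, the Hippo kinase gene *Lats2* and the WNT inhibitor gene *Nkd2* 5. The count is of peaks assigned by nearest start, and the *Lats2* promoter also carried a D0 peak that was assigned to another gene. All 7 W6 peaks of *Igf2r* were already called at W2, and none of the 5 of *Flrt1* or *Slc5a1* was called at any other time. Over all gained distal peaks 43.9% were called at W2 and 38.0% at none of W1, W2 and W12. *Fgfr1* with 5 W6 peaks (3.78 kb) stood opposite to *Fgfr2* with its 11 losses.

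Promoters were compared gene by gene. A promoter peak was called at both times for 9604 protein-coding genes, at D0 only for 483 (2.20%) and at W6 only for 1270 (5.79%). Of lost promoter peaks, 2 of the 8 strongest lay at start sites of a pseudogene or a small RNA and at no protein-coding start. One 944 bp from the pseudogene *Gm47964*, with *Tmprss13* 18285 bp away as the nearest protein-coding start, had a fold enrichment of 24.0. *Stpg2* followed with a fold enrichment of 20, *Bmp3*, which encodes a BMP family ligand, with 18.0, and *Tiam1*, the alarmin gene *Tslp* and the ectonucleotidase gene *Entpd2* with 16.7 each. A peak at the small nucleolar RNA gene *Gm24334*, near the serine protease inhibitor gene *Serpina3n*, had 16.0 and *Galnt1*, which starts O-linked glycosylation, 14.7. The peaks at *Tiam1*, *Gm24334* and *Galnt1* lay only 369, 652 and 767 bp from a W6 peak, and the others 8085 bp or more. The *Tiam1* promoter was marked at both times, at heights of 102 and 50.2, and lower W6 heights were common among strong shared peaks, as given below. The *Bmp3* peak (chromosome 5, 98854127 to 98856713) was 2587 bp wide and was called at none of W1, W2 and W12.

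Gained promoter peaks reached 22.7 at *Tmed4*, a cargo receptor of the secretory pathway, and at *Ube2c*, the ubiquitin-conjugating enzyme of the anaphase-promoting complex. The antisense RNA gene *Gm40117*, 32404 bp from *Wnt2b*, followed with 22.1, then the peptidase gene *Thop1* and the thioredoxin-related gene *Tmx1* with 20.9, *Shf* and the ciliary gene *Lca5* with 19.1, and the start site shared by *Bpnt1* and *Iars2* with 18.5. All 8 were also called at W2, and 6 of them at W1, the exceptions being *Ube2c* and *Lca5*. Over all gained promoter peaks, most of them weaker, these shares were 43.2% and 33.9%. The *Shf* peak was the widest, at 8226 bp (chromosome 2, 122354703 to 122362928).

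Single distal peaks were also strong. The highest lost distal peak lay in an intron of the monocarboxylate transporter gene *Slc16a9* (chromosome 10, 70261801 to 70265368, fold enrichment 30.7, 3568 bp wide) and was called at W1, W2 and W12 but not at W6. Lost peaks near *Serp2* (24.7), in *Dgki* (22.0), near *Cd47*, whose product restrains phagocytosis (18.7), in *Cachd1* (18.7) and near *Nxph3* (18.0) followed, each called at W1 and W2. All 6 were thus present in lists made after induction. The 6 highest gained distal peaks lay near the 14-3-3 gene *Ywhaq* (20.3), near the autophagy gene *Map1lc3b* (19.7), near the vasopressin receptor gene *Avpr1a* (19.1), near *Adgrb1* (19.1), in the coagulation factor gene *F11* (19.1) and near *Nfe2l3* (18.5), and 5 of them, all but that near *Adgrb1*, were called at both W1 and W2. Over all distal peaks, most of them weaker, 12.6% of lost and 23.6% of gained ones were called at both W1 and W2. All 12 of the peaks named here lay in an H3K4me1 domain at both D0 and W6.

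Heights of shared peaks were then compared for 15128 pairs in which a D0 and a W6 peak overlapped only each other. The median log2 ratio of W6 over D0 height was -0.24, and 1075 pairs (7.11%) lay over 2-fold above this median and 944 (6.24%) over 2-fold below it. The ratio depended on height itself: its median was -0.02 in the lowest of 10 equal bins of pairs by mean height and -0.70 in the highest, where the 5th and 95th percentiles were -1.45 and 0.12. A lower W6 height, as at the strong promoter of *Krt14* (132 at D0, 54.7 at W6), was therefore common among strong peaks. A *Krt14* promoter also drives the activator transgene, and whether reads from it fell in this peak was not tested. The scale matters as well, since with the deposited fold enrichments in place of heights the median ratio was 0.01.

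The largest relative increases were a promoter peak of *Nudt2*, a nucleotide hydrolase gene (height 9.99 at D0, 68.0 at W6), a distal peak near *Ccdc192*, and a peak 32709 bp from the WNT receptor gene *Fzd7* (7.99 and 41.4). A distal peak near *Dact2*, a WNT and TGF-beta modulator gene, stood at 9.99 and 48.8, a peak 12033 bp from *Moap1* at 9.99 and 47.3, a distal one near the retinol-binding protein gene *Rbp2* at 16.0 and 72.4, one near *Nhsl1* at 12 and 51.7 and the promoter peak of the integrin gene *Itgb8* at 12 and 51.7. The largest relative decreases were at the promoter of the protease gene *Prss23* (81.9 at D0, 8.87 at W6) and at that of *Mill2*, an MHC class I-like gene (53.9 and 8.87). Promoter peaks of *1600014C10Rik* (136 and 25.1) and of the interleukin 6 receptor gene *Il6ra* (118 and 22.2), and distal peaks near the kinase gene *Sik1* (43.9 and 7.39), *Tiparp*, a target of the aryl hydrocarbon receptor (75.9 and 13.3), *Pkib* (55.9 and 10.3) and *Rlbp1* (47.9 and 8.87) followed. Relative to the median of all pairs, these 8 log2 ratios lay between -2.97 and -2.17, and those of the 8 increases between 2.35 and 3.01. The lower side of most of these pairs was near the smallest pileup called, 4 at D0 and 5 at W6. D0 pileups of the 8 increases ran from 4 (*Fzd7*) to 8 (*Rbp2*). W6 pileups of the 8 decreases ran from 5 (*Sik1*) to 17 (*1600014C10Rik*), so these ratios are imprecise.

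Members of 16 gene lists of epidermal and follicular biology were followed, with 37.8% of all D0 peaks lost and 39.8% of all W6 peaks gained set beside them. These 2 shares are over all peaks, whereas list shares count only peaks assigned within 50 kb. Changed distal peaks lay within 50 kb of a protein-coding start less often (66.1% of lost, 64.0% of gained) than shared ones (70.5% at D0, 70.6% at W6). The shares over all assigned peaks are not given here, so small differences from 37.8% and 39.8% were not read. The median gene had no surplus either way in the lists other than stress keratins (-1.0 gained minus lost), AP1 family (-0.5) and RUNX genes (1.0). The list of RUNX genes and their partner, 4 genes in all, had the highest gained share of the 16 lists. It had 14 of 18 W6 peaks gained and 3 of 8 D0 peaks lost, and 10 of these gained peaks were at *Runx1* alone. WNT pathway genes had 49 of 105 D0 peaks lost (46.7%) and 59 of 112 W6 peaks gained (52.7%). Several ligand genes had more lost than gained peaks. *Wnt3* and *Wnt5a* each had 7 peaks at D0 and none at W6, *Wnt10b* had 2 and none, and *Wnt7b* had 10 lost and 5 gained peaks. Promoter peaks of these 4 ligands were called at D0 only, at heights of 30.0 for *Wnt3* and *Wnt5a*, 16.0 for *Wnt10b* and 28.0 for *Wnt7b*, and that of *Wnt11* at W6 only (10.3). The strongest lost *Wnt3* peak (chromosome 11, 103772686 to 103776065) was 3380 bp wide and lay 234 bp from its start.

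WNT receptors and modulators were mixed. *Fzd7* had 8 gained and no lost peaks, with coverage of 1.69 kb at D0 and 14.19 kb at W6, whereas *Fzd6* had 5 lost and 1 gained. *Lgr4*, a receptor for R-spondins, had 8 gained and 2 lost peaks, and its relative *Lgr6* had 4 gained peaks and none at D0. *Rnf43*, an E3 ligase that removes WNT receptors, *Tcf7l2*, which binds beta-catenin, and *Dkk3* each had 5 gained and 2 lost peaks. *Fzd1* and *Lrp5* each had 3 gained and none lost, *Ctnnb1*, which encodes beta-catenin itself, 3 gained and 2 lost, and *Axin2*, a WNT target, 1 gained and 3 lost.

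In the list of EGF receptors and ligands, 28 of 53 D0 peaks were lost (52.8%) and 19 of 42 W6 peaks gained (45.2%), with 14 of the losses at *Egfr*. Its ligand genes differed among themselves. *Epgn* had 5 lost and 1 gained peaks and a promoter peak at D0 only (height 28.0), and *Btc* had 1 lost peak. *Nrg1*, a ligand of the related ERBB receptors, had no peak at D0 and 3 at W6 with a promoter height of 31.0, and *Areg* and *Ereg* had promoter peaks at W6 only (11.8 each). *Tgfa* had 3 gained and 1 lost peaks and a promoter marked at 16.0 and 29.6. *Errfi1*, which inhibits EGFR, had 3 gained and 2 lost.

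BMP and TGF-beta genes had 39 of 99 D0 peaks lost (39.4%) and 24 of 82 W6 peaks gained (29.3%). *Tgfbr2*, which encodes a TGF-beta receptor that restrains keratinocyte growth, had 9 lost and no gained peaks (17 at D0, 7 at W6), all weak, with fold enrichments from 3.33 to 5.33. *Bmp4* had 5 lost and no gained peaks, *Bmp2* 3 lost and none left at W6, and *Tgfb2* 2 lost and none left. Receptor gene *Bmpr1a* had 3 lost and 1 gained, *Smad3*, a signal transducer, 3 and 1, and the BMP target gene *Id3* 3 and 3. Only *Tgfbr1* of this list had 3 gained peaks without a loss.

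**Figure D4:**
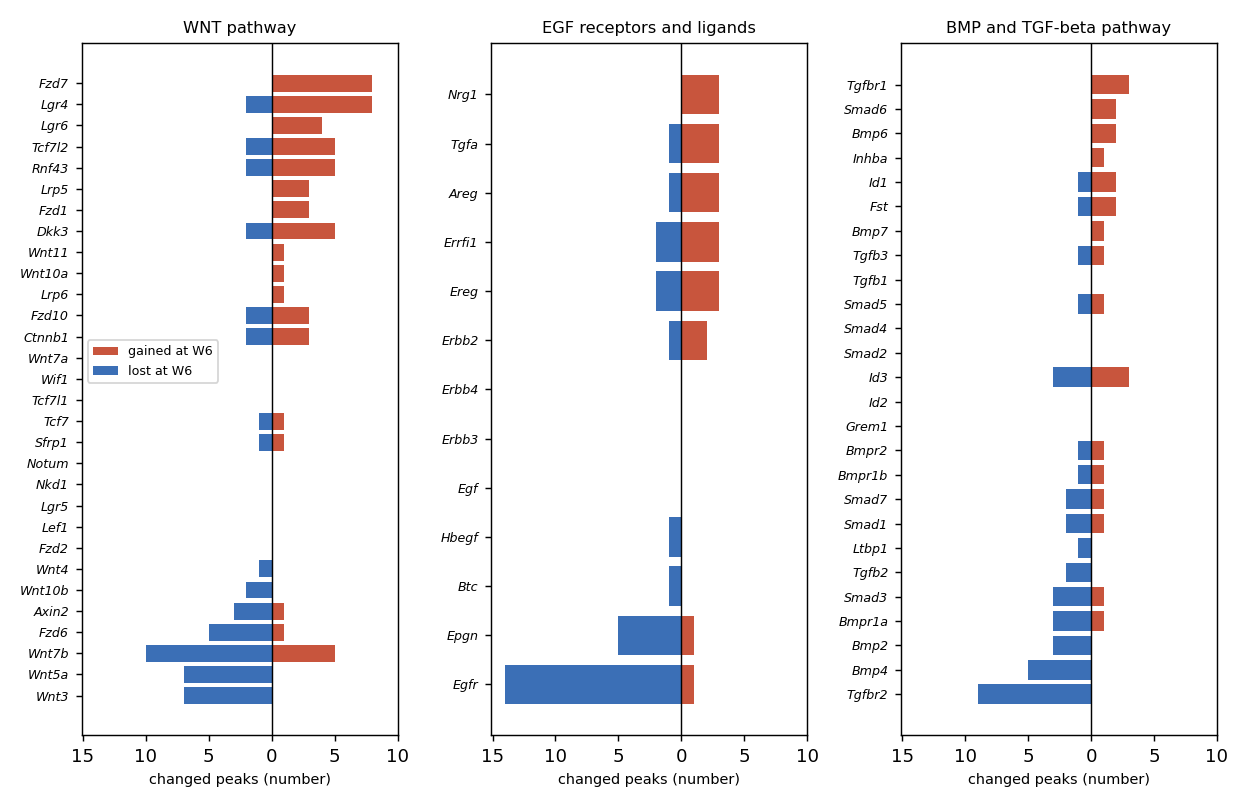
Lost and gained H3K27ac peaks of each member of 3 gene lists: WNT pathway, EGF receptors and ligands, and BMP and TGF-beta pathway. *Egfr* had 14 lost and 1 gained peaks, *Fzd7* 8 gained and 0 lost.

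Genes of hemidesmosomes and basement membrane had 43 of 102 D0 peaks lost (42.2%) and 26 of 90 W6 peaks gained (28.9%), and 15 of the losses were at *Col17a1*. *Itgb1*, the beta1 integrin gene, had 3 lost and no gained peaks. *Itga6*, whose product CD49f served in the sort, had 5 lost and 4 gained, *Dst*, a hemidesmosomal plakin, 5 and 5, and the laminin genes *Lama3* and *Lama5* 4 and 3, and 3 and 4. Promoters of 13 of the 15 genes were marked at both times and those of the other 2 at neither.

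Transcription factor genes of HFSCs had 21 of 71 D0 peaks lost (29.6%) and 41 of 81 W6 peaks gained (50.6%), and coverage went from 67.1 kb to 102 kb. This coverage includes *Sox9* (4.07 kb and 5.95 kb), where reads of the transgene may add to the W6 value. All peaks together covered 27.3 Mb at D0 and 30.4 Mb at W6. *Runx1* (10 gained, 1 lost) contributed most, and its strongest gained peak is printed above. It had 3 peaks at D0 and 11 at W6, all 10 gained ones in introns, with fold enrichments from 3.58 to 8.50 and coverage of 3.69 kb at D0 and 11.52 kb at W6. Of the gained *Runx1* peaks 1 was called at W1, 5 at W2 and 4 at W12, and its promoter stood at 47.9 and 42.9. Over all gained distal peaks 33.8%, 43.9% and 26.9% were called at these times. *Vdr*, the vitamin D receptor gene, had 7 gained and 1 lost peaks, of which 5 gained ones were called at W1 and 6 at W2. *Gli2*, a Hedgehog effector, had 4 gained and 1 lost with a promoter peak at W6 only (16.3), *Nfatc1* had 3 gained and 1 lost, and *Nfib* 5 gained and 7 lost. *Msx2* had 2 peaks at D0 and none at W6. Markers of HFSCs and of the outer root sheath had 33 of 71 D0 peaks lost (46.5%) and 27 of 66 W6 peaks gained (40.9%), with coverage of 76.9 kb at D0 and 69.8 kb at W6, and 15 of those losses were at *Col17a1*, which is also in this list.

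*Sox9* itself had 3 peaks at D0 and 3 at W6, of which 1 was lost and 2 were gained. The D0 peaks at its start (chromosome 11, 112781205 to 112784387) and in its 3′ part had fold enrichments of 14.7 and 4.66 and were overlapped by a single W6 peak of 25.6 (112781059 to 112785502). Reads from the *Sox9* cDNA of the transgene cannot be told apart from reads of the endogenous exons, so nothing was read from this peak. The gained *Sox9* peaks lay 14827 and 29381 bp from the start, with fold enrichments of 8.95 and 5.28.

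Epidermal identity factors had 30 of 120 D0 peaks lost (25%) and 45 of 136 W6 peaks gained (33.1%), both below the shares over all peaks, assigned or not. Of their promoters, 19 of 20 were marked at both times. *Prdm1*, a transcriptional repressor gene, had 8 gained peaks and a promoter peak at W6 only (14.8). *Tfap2a* and *Cebpb* each had 5 gained and no lost peaks, and *Klf4* and *Barx2* 4 and none. In the other direction, the grainyhead genes *Grhl1* and *Grhl3* had 5 lost and 1 gained and 3 lost and none gained, and *Cebpa* had 3 lost and none gained. *Trp63*, the master regulator of stratified epithelia, had 4 gained and 2 lost, and *Gata3* 3 gained and 4 lost.

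Basal and suprabasal epidermal genes had 23 of 66 D0 peaks lost and 31 of 71 W6 peaks gained, and stress and simple epithelial keratin genes 13 of 26 and 8 of 19. *Tgm3*, a transglutaminase of the cornified envelope, had 7 peaks at D0 and none at W6, with its promoter at a height of 20 at D0, while *Tgm1* had 3 gained peaks and none lost. *Calml3* had 5 gained and 1 lost peaks, *Serpinb5* 6 and 1, and the desmoplakin gene *Dsp* 3 and 6. Desmosomal cadherin *Dsc1* and *Cdsn* had promoter peaks at W6 only. *Krt6a*, a keratin of wounded and follicular epithelium, had no peak at D0 and 4 at W6 with a promoter height of 29.6, whereas *Krt16* had 3 lost and 1 gained. Both lie among close copies, so reads may have been shared between *Krt6a* and *Krt6b* and between *Krt16*, *Krt17* and *Krt14*. *Krt15*, a keratin of stem cells of the bulge, had 4 peaks at D0 and 1 at W6, with promoter heights of 26.0 and 7.39, and *Krt80* had 6 lost and 3 gained.

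In the Hedgehog pathway 10 of 31 D0 peaks were lost (32.3%) and 20 of 38 W6 peaks gained (52.6%). Co-receptor genes parted: *Boc* had 7 gained and no lost peaks (4 at D0, 11 at W6) and *Cdon* 5 lost and none gained (6 at D0, 1 at W6). Notch genes had 19 of 63 D0 peaks lost and 28 of 74 W6 peaks gained, and the ligand genes *Jag1* and *Jag2* had 5 and 2 lost peaks and none gained, while the coactivators *Maml2* and *Maml3* had 11 gained and 4 lost and 6 gained and 2 lost.

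AP1 family genes had 18 of 62 D0 peaks lost (29.0%) and 14 of 57 W6 peaks gained (24.6%). *Fosl2* had 5 gained and 2 lost, *Atf3* 2 gained and 5 lost and *Fos* 2 gained and 3 lost. Cell cycle genes had 11 of 34 D0 peaks lost (32.4%) and 19 of 39 W6 peaks gained (48.7%). *E2f1*, which drives entry into S phase, and *Ccna2*, a cyclin of S phase and mitosis, had promoter peaks at W6 only, both at 22.2, and *Cdkn1a* and *Cdkn1b*, which encode cyclin-dependent kinase inhibitors, had 3 gained and none lost each. Genes of epithelial to mesenchymal transition and invasion had 4 of 23 D0 peaks lost (17.4%) and 5 of 25 W6 peaks gained (20%). Cytokine and chemokine genes had 17 of 37 D0 peaks lost (45.9%) and 11 of 33 W6 peaks gained (33.3%), with a surplus of gains at 5 members and of losses at 5. *Il1b* had 4 lost and no gained peaks, *Csf2* 3 and none, and *Il34* 2 lost and 4 gained, while promoter peaks were called at D0 only for *Tslp* and *Il33* and at W6 only for *Il18* and *Cxcl5*.

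Whether changed peaks were found at other times was read from lists that the rule did not use. W12 cells came from skin grafted onto immunocompromised hosts, unlike those of D0, W1, W2 and W6, so that time and grafting cannot be told apart there, and replicate 1 of W2 was sequenced in the same libraries as W12 and separated by barcode. Of gained distal peaks 33.8% (32.9 to 34.8%) were called at W1, 43.9% (42.9 to 44.9%) at W2 and 26.9% (25.9 to 27.8%) at W12, and 38.0% (37.0 to 39.0%) at none of them. Of lost distal peaks 30.3% (29.3 to 31.2%) were called at W1, 21.8% (21 to 22.7%) at W2 and 16.2% (15.4 to 16.9%) at W12, and 53.9% (52.8 to 54.9%) at none. Shared distal W6 peaks were called in 76.1%, 78.6% and 58.2% of cases in the same order. Gained distal peaks were thus found more often than lost ones at all 3 times, with the widest gap at W2, and of gained distal peaks above the median score 73.3% were called at W2. Promoter peaks behaved alike, with 43.2% of gained and 26.0% of lost ones called at W2. Background pileups of 0.299 at W1, 0.425 at W2 and 0.411 at W12 show that all 3 lists were shallower than D0 and W6, and weak peaks may be missing from them.

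H3K4me1, measured in cells of the same sort with another antibody, was mostly called at both times at these sites. Its domains were broad, and covered 309.6 Mb at D0 and 273 Mb at W6 of a genome of 2726 Mb. An overlap of 1 bp was enough to count. An H3K4me1 domain lay over 95.7% of lost distal peaks at D0 and over 90.1% (89.4 to 90.7%) at W6. Of gained distal peaks 89.6% (88.9 to 90.2%) had a domain at D0 and 97.2% (96.9 to 97.6%) at W6. Most gained sites therefore carried H3K4me1 before SOX9 was induced, and most lost sites still carried it at W6. Domains present at W6 only were found at 728 gained peaks (8.25%) and at 41 lost peaks (0.438%), and domains present at D0 only at 564 lost peaks (6.03%) and at 53 gained peaks (0.601%). Where H3K4me1 itself differed, it mostly differed in the direction of H3K27ac. For shared distal W6 peaks these shares were 98.8% (D0 domains) and 98.7% (W6 domains).

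**Figure D5:**
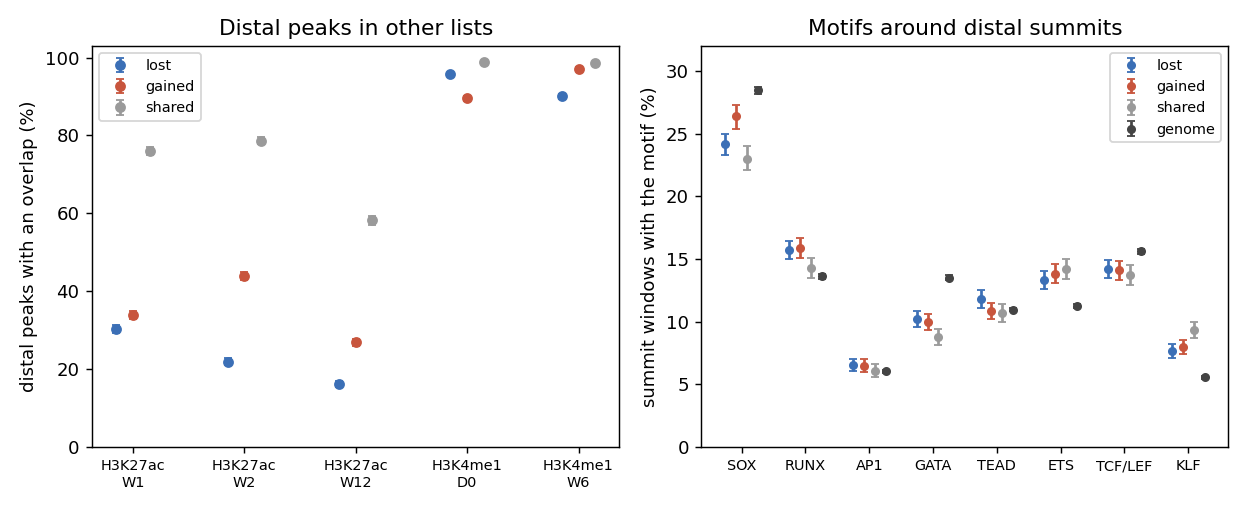
Presence of lost, gained and shared distal peaks in the W1, W2 and W12 H3K27ac lists and in the H3K4me1 domains of D0 and W6. Beside it stands the share of their summit windows, and of genome windows, that held a motif, for a part of the 16 motifs searched. Gained peaks were found at W2 in 43.9% of cases and lost peaks in 21.8%, while motif shares of gained and lost windows differed by at most 2.20 points.

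Sequences under the summits of lost and gained peaks were alike in composition, with a median GC content of 48.3% in both, against 41.8% in genome windows of the same length. A SOX motif stood within 100 bp of the summit in 26.4% (25.4 to 27.3%) of gained, 24.2% (23.3 to 25%) of lost and 23.0% (22.1 to 24.0%) of shared distal W6 peaks, against 28.5% of genome windows, which are poorer in GC. Gained minus lost came to 2.20 points (0.94 to 3.47). Gained peaks called at W2 held it in 28.3% (26.9 to 29.7%) of cases and those called at neither W1 nor W2 in 25.3% (24.0 to 26.7%). With 50 bp on either side the difference was 0.71 points and with 200 bp 4.18.

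The RUNX motif was held by 15.9% of gained and 15.7% of lost windows (0.21 points, -0.85 to 1.27) against 13.6% of the genome, and the AP1 motif by 6.48% and 6.52% (-0.04 points, -0.76 to 0.68) against 6.01%. GATA stood in 9.97% and 10.2% of windows (genome 13.5%). Of 16 motifs searched, the counting interval of the difference left out 0 only for SOX and for TEAD (GGAATG, 10.8% of gained and 11.8% of lost windows, -0.97 points, -1.89 to -0.05, genome 10.9%), without adjustment for the number of motifs. A motif match is a description of the letters and not of binding, and SOX9 binding was not analysed here.

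Distances between changed sites were also taken. Of lost distal peaks 43.3% (42.3 to 44.4%) had another lost distal summit within 10 kb and 22.1% (21.2 to 22.9%) a gained one. Of gained distal peaks 47.9% (46.8 to 48.9%) had another gained one within 10 kb and 23.5% (22.6 to 24.4%) a lost one. No such share was taken for shared peaks, and neighbouring peaks of 1 list were not joined here. Joining those less than 1000 bp apart left 25217 of 30268 D0 and 24775 of 30516 W6 peaks. Whether changes cluster by direction was therefore not tested. *Actn1*, *Fgfr2* and *Wnt3* held runs of changes in 1 direction, and *Runx1* also held a lost and a gained peak side by side, at 22260 and 21552 bp from a start. Lost distal summits lay in introns in 62.0%, between genes in 34.5% and in exons in 3.59% of cases, and gained ones in 58.8%, 37.3% and 3.97%.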

How the data were processed

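H3K27ac MINT-ChIP of sorted EpdSCs was compared between 1 pooled list of D0 and 1 of W6. Per the paper's methods and the submitters' processing notes, the authors trimmed reads with Skewer, aligned them to GRCm38/mm10 with Bowtie2 (2.2.9), removed duplicates with Picard, merged replicates and digests with SAMtools (1.9) and called H3K27ac peaks with MACS2 (2.1.1). H3K4me1 domains were called with epic2. Caller settings and control libraries are not given in the sources used here. In the deposited H3K27ac lists each peak has a score in whole numbers, a ratio of its summit to the local background (fold enrichment), and its p and q as −log10. For each H3K4me1 domain the deposited lists hold a p-value. The lists hold no comparison between groups.

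Overlap meant at least 1 bp. Start sites (77221, of 55413 genes) were those of the GENCODE M21 basic set. Pileups were recovered from the steps of the fold enrichment for at least 99.98% of peaks per list, and heights are pileup over background. Motifs were searched on both strands in windows of 100 bp on either side of the summit and in genome windows every 20000 bp, with letters as printed. The text names the 12 genes with the largest surplus in each direction (ties by summed fold enrichment), the 8 strongest lost and gained promoter peaks, the 6 strongest distal ones, the 8 largest differences in each direction among shared pairs at least 5 times over background, and members of 16 lists with 3 or more changed peaks or a changed promoter, in part, and a few items are not reported here. Members, lists and rules were chosen with earlier results of these data known. Functions were tested on simulated lists. Python 3.11.15, NumPy 2.4.6, pandas 2.3.3, SciPy 1.17.1 and Matplotlib 3.10.9 were used. Alternatives were an overlap of 50%, peaks above the median score, lists of equal length, joined peaks, a height minimum, other distances, and no chromosomes X and Y.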

Additional observations from a re-analysis of the deposited data

How the results depend on the processing

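No paired analysis was possible because each list pools its replicates, and for the same reason no replicate could be left out. Of 84 recomputed values that answer a comparison, 44 stayed within their tolerance and 40 did not. Signs changed for the median height ratio of shared pairs, and also for motif differences whose intervals span 0: AP1 came to 0.42 above the median score and 0.24 at a GC content of 45 to 55%, and RUNX to -0.31 above the median score and -0.10 with 200 bp on either side. Of 168 recomputed surpluses of named genes, none changed sign, and 58 moved. Peaks above the median score numbered 1718 lost and 2407 gained against the full other list and 3764 and 4637 when both lists were restricted. The distal share of lost peaks was then 78.2% and 72.3% and that of gained peaks 61.2% and 56.3%, and genes with 3 or more lost peaks numbered 34 and 144 and with 3 or more gained peaks 53 and 170. Distal limits of 1000 and 10000 bp gave distal shares of 89.7% and 54.1% for lost and 81.4% and 47.7% for gained peaks, and joining peaks gave 84.0% and 75.1%. With an overlap of 50% of the shorter peak the distal share of lost peaks was 80.6%. Genes with several lost and gained peaks numbered 546 and 475 with joined peaks, 539 and 569 within 25 kb, 1747 and 1823 for 2 or more peaks, 258 and 278 for 5 or more, and 2021 and 2572 when every gene within 50 kb was counted. The median log2 ratio of shared pairs was 0.01 with the authors' fold enrichments and -0.34 for pairs above the median score. Gained distal peaks lay in a D0 H3K4me1 domain in 88.4% of cases at the summit and in 92.1% above the median score, and were called at W2 in 37.6% with the 50% overlap and in 73.3% above the median score. The SOX difference was 0.71 points with 50 bp and 4.18 with 200 bp on either side of the summit and 4.07 above the median score, and with 200 bp the AP1 and GATA differences were -0.76 and -1.44. The causes were not tested. The smallest pileup called was 4 at D0 and 5 at W6, and the weakest peaks were those most often without a counterpart; the part of depth in this was not tested.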
